A study of Mus musculus with 12 samples.

Results

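The effect of losing Med30 was compared between the embryonic heart and the adult cardiomyocyte, gene by gene. The genes compared were those with a mean RPKM (a read count divided by gene length and by library size) above 1 over the 6 samples of each stage. These were 8909 of the 20775 genes listed, and a further 1976 genes passed this minimum at E10.5 alone and 608 at 4 weeks alone. Genes close to the minimum were Arhgap42 inside it, with a mean RPKM of 1.46 at E10.5 and just over 1 at 4 weeks, and Ecscr outside it, with 11.4 and 0.999. RNA was sequenced from 12 C57BL/6 samples in 4 groups of 3. At E10.5, whole hearts of Med30 f/f embryos with Tnnt-Cre (cKO) were set against hearts of Cre-negative littermates (Ctrl), which the sample labels call wild type. In mice aged 3 months, cardiomyocytes isolated 4 weeks after tamoxifen from Med30 f/f mice with αMHC-MerCreMer (icKO) were set against those of Cre-negative Med30 f/f mice that had also received tamoxifen (Ctrl). No RNA sample carried Cre without a floxed Med30, so Cre and the loss of Med30 cannot be told apart. The E10.5 hearts also contain cells in which Tnnt-Cre is not active, and the time since deletion, the Cre line and tamoxifen differ between the stages. The paper places E10.5 before overt cardiac defects, although it reports that cardiomyocytes of cKO hearts already proliferated less at that stage. At 4 weeks icKO hearts were dilated, with more dying cardiomyocytes than Ctrl. The paper calls it likely that the adult changes hold both primary and secondary ones. A difference between the stages therefore cannot be told apart from these differences in model and in the state of the heart.

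Mediator is a large protein complex that carries signals from transcription factors on enhancers to RNA polymerase II at promoters. MED30 is a subunit of its core that is found in animals and not in yeast. The embryonic heart beats with fetal isoforms of contractile proteins and draws on glucose, whereas the adult cardiomyocyte is packed with mitochondria and mainly burns fatty acids. Loss of the same subunit was thus measured against a very different starting expression.

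At each stage the knockout effect was the log2 difference of knockout minus Ctrl on log2(RPKM + 0.1), after median-ratio scaling of the samples within the stage. The difference between stages was the effect at 4 weeks minus the effect at E10.5. All 3 came from 1 limma fit of the 12 samples, with Benjamini-Hochberg adjustment over the 8909 genes. A gene is said to have risen or fallen at a stage when its adjusted p was under 0.05, and to have been called when it also moved beyond 1 on the log2 scale. Levels are given as scaled RPKM. Because each stage was normalized on its own, levels were not tested across stages. Exons of Slc2a1, Prkag2, Tgm2, Corin, Adcy6, Ckmt2, Trim54, Litaf, Plxnb1, Pfkfb1, Dbp, Pln, Myh7b, Myh6, Abcc9, Pfkp, Pfkfb2, Pfkm, Gys1, Dusp1, Cdkn1a, Hopx, Irx3, Nppa, Mb, Myl4, Tgfb2, Aldh1l2, Bcl2, Ccna2, Uchl1, Fbxo32, Med12l, Med15, Med21, Cct8, Tcp1, Tef, Arntl, Bhlhe40 and Nr1d1 overlap those of a gene on the other strand, and since the strand setting of the counting is not stated, their values may hold reads of that gene. Myh6 and Myh7 are also near-identical over long stretches.

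At 4 weeks the libraries differed by genotype in their median-ratio factors, which were 0.826, 0.838 and 0.836 in Ctrl and 1.24, 1.21 and 1.18 in icKO. The median 4-week effect over all genes was 0.59 on RPKM as deposited and 0.06 after scaling. At E10.5 the factors were 1.13, 0.989 and 1.03 in Ctrl and 0.947, 0.939 and 1.01 in cKO, and 2 libraries stood out. Y-linked genes were near 0 in Ctrl replicate 2 alone of the 12 samples, and the erythroid markers summed to 2978 RPKM in cKO replicate 1, the highest of all samples. Without Ctrl replicate 2, 57 genes moved in opposite directions between the stages, and without cKO replicate 1, 54 did, in place of 75. Of these, 47 and 48 were among the 75.

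Med30 itself was lower in all knockout samples. Its scaled RPKM was 9.34, 13.5 and 11.0 in the E10.5 Ctrl hearts and 1.45, 2.15 and 0.992 in cKO, an effect of −2.85 ± 0.26 (SE, n = 3 against 3). At 4 weeks it was 9.27, 8.90 and 9.16 in Ctrl and 3.07, 2.6 and 1.55 in icKO, an effect of −1.93 ± 0.26. The difference between the stages was 0.91 ± 0.37 (adjusted p = 0.053 in limma) and was not called.

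The 4-week knockout moved more genes and moved them further. The middle 50% of knockout effects lay between −0.19 and 0.16 at E10.5 and between −0.53 and 0.55 at 4 weeks. The median SE was 0.14 at both stages, which the fit sets equal because the groups share 1 spread per gene. At E10.5, 27 genes were called higher (0.303% of those tested) and 40 lower (0.449%), against 996 higher (11.2%) and 1225 lower (13.8%) at 4 weeks, which makes 67 genes (0.752%) and 2221 genes (24.9%). By adjusted p alone, 795 genes passed at E10.5 (8.92%, with 4.33% higher and 4.59% lower), 66.7% of genes passed at 4 weeks and 53.1% passed for the difference. The difference itself was called for 2053 genes (23.0%), of which 949 (10.7%) had the higher effect at 4 weeks and 1104 (12.4%) the lower one. This balance depended on scaling. The 20 most abundant genes held 24.2% to 24.8% of the summed RPKM in adult Ctrl and 10.7% to 12.2% in icKO. On RPKM as deposited, the median difference of all genes was 0.69 in place of 0.05, with 3057 genes called higher and 448 lower (87.2% higher, against 46.2% after scaling), and without the 20 most abundant genes in the scaling it was 0.29, with 66.4% higher. List medians below are therefore read against the median of all genes, which after scaling was −0.01 at E10.5, 0.06 at 4 weeks and 0.05 for the difference.

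**Figure D1:**
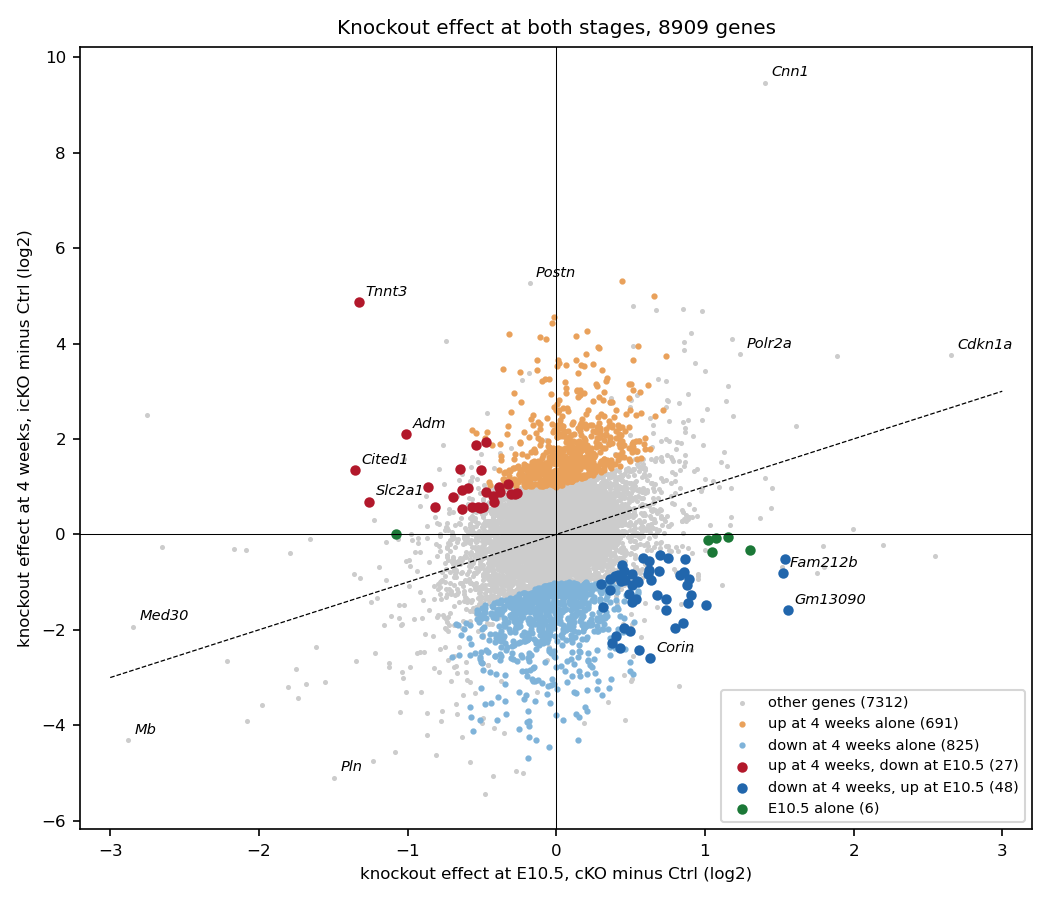
Knockout effect at E10.5 (x axis, log2) against that at 4 weeks (y axis, log2) for each of the 8909 genes, coloured by class; the dashed line marks equal effects. The cloud is taller than wide, and the 75 genes of the opposite classes lie in the upper left and lower right.

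Of the 2053 genes, 1516 were called at 4 weeks while the 95% confidence interval of their E10.5 effect lay inside −1 to 1 (4 weeks alone: 691 up, 7.76%, and 825 down, 9.26%). In the converse class, E10.5 alone, there were 6 genes. Opposite directions, with an adjusted p under 0.05 at each stage and the difference called, were found for 75 genes (0.842%): 27 rose at 4 weeks and fell at E10.5 (0.303%), and 48 fell at 4 weeks and rose at E10.5 (0.539%). A further 26 were called in the same direction at both stages with a larger change at 4 weeks. The rest were called at 4 weeks with an E10.5 interval reaching beyond 1 (168 genes), at E10.5 with such an interval at 4 weeks (1 gene) or at neither stage (261 genes). Over all genes the interval lay inside −1 to 1 for 92.7% at E10.5 and for 58.2% at 4 weeks. In this fit the interval of a gene is equally wide at both stages, so these shares differ through the size of the effects.

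Most of the 75 opposite genes moved little at E10.5, where 8 of them went beyond 1, against 32 at 4 weeks. In all 75, knockout and Ctrl samples did not overlap at either stage. Over all genes this held for 30.3% at E10.5, 73.0% at 4 weeks and 22.8% at both, and the class itself was chosen by these same values. The class is sensitive at E10.5. It held 45 genes without cKO replicate 2, 46 without Ctrl replicate 1 and 107 without cKO replicate 3, and 22 genes kept the class whichever sample was left out, while the difference stayed called for 71 in all 12 leave-outs. When each effect was tested against a fold change of 1.2 in place of 0, Gyg and Fam212b remained in it. Under 4 other scalings, 31 of the 75 kept the class and 71 kept both signs.

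Of the genes that rose at 4 weeks and fell at E10.5, Tnnt3, Adm and Cited1 went beyond 1 at both stages. Tnnt3 (chr7:142498836-142516009, GRCm38, plus strand) encodes the troponin T of fast skeletal muscle. Its scaled RPKM was 3.86, 2.51 and 3.75 in E10.5 Ctrl and 0.983, 1.05 and 1.94 in cKO. In adult Ctrl it was 0.283, 0.0704 and 0.0730, near the pseudocount, and in icKO 7.51, 6.49 and 5.47. The effects were −1.33 ± 0.33 and 4.86 ± 0.33, and the difference was 6.19 ± 0.47 (adjusted p = 6.16e-07). All icKO samples thus lay above the embryonic Ctrl values, on scales set separately. The fall of Tnnt3 at E10.5 (adjusted p = 0.029) was lost in 4 of the 12 leave-outs.

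Adm (chr7:110627661-110629820, plus strand) encodes adrenomedullin, a vasodilator peptide needed for the development of heart and vessels. Its scaled RPKM fell from 1.14, 2.19 and 1.03 in E10.5 Ctrl to 0.733, 0.476 and 0.722 in cKO, and rose from 1.1, 0.633 and 0.707 in adult Ctrl to 4.34, 3.46 and 3.5 in icKO. The difference was 3.11 ± 0.41 (adjusted p = 4.70e-05). Its fall at E10.5 was at the threshold (−1.01 ± 0.29, adjusted p = 0.049) and Adm kept the class in 1 of 12 leave-outs, although the difference was called in all 12.

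Cited1 (chrX:102247381-102252181, minus strand), a transcriptional co-regulator that binds CBP/p300, was abundant in the embryo alone. Its scaled RPKM was 106, 90.7 and 110 in E10.5 Ctrl and 46.0, 35.9 and 37.9 in cKO, and 0.474, 0.528 and 0.365 in adult Ctrl and 1.42, 0.765 and 2.02 in icKO. The effects of −1.36 ± 0.25 and 1.35 ± 0.25 gave a difference of 2.71 ± 0.35 (adjusted p = 3.79e-05), and Cited1 kept the class in all 12 leave-outs.

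The glycolysis list had 2 of its 25 tested members in this class, Slc2a1 and Pgk1. Slc2a1 (chr4:119108711-119137983, plus strand), the glucose transporter GLUT1, had a scaled RPKM of 87.4, 141 and 109 in E10.5 Ctrl and 45.4, 37.9 and 57.0 in cKO, but 5.52, 5.28 and 3.48 in adult Ctrl and 9.65, 6.86 and 6.55 in icKO. Its effects were −1.26 ± 0.22 and 0.69 ± 0.22, with a difference of 1.94 ± 0.31 (adjusted p = 2.03e-04). Gyg, glycogenin, which primes glycogen chains, went from 334, 329 and 323 to 196, 219 and 197 at E10.5 and from 75.5, 64.7 and 69.8 to 117, 123 and 121 at 4 weeks. Its replicates were close together, and its difference of 1.48 ± 0.11 (adjusted p = 5.80e-07) kept the class under every alternative tried. Prkag2, the γ2 regulatory subunit of the energy sensor AMPK, had effects of −0.54 ± 0.11 and 1.87 ± 0.11. Its change at 4 weeks was the larger. Pgk1, the phosphoglycerate kinase, named after its values were seen, had effects of −0.57 ± 0.09 and 0.57 ± 0.09.

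The remaining genes of this class that the naming rule picked have varied roles. Klhl41, a protein that stabilises the thin filament of skeletal muscle, had effects of −0.63 ± 0.13 at E10.5 and 0.94 ± 0.13 at 4 weeks. Tgm2, a transglutaminase that crosslinks proteins, had −0.60 ± 0.09 and 0.96 ± 0.09. Sap30, a part of the SIN3 histone deacetylase complex, had −0.65 ± 0.15 and 1.36 ± 0.15. Rexo2, an oligoribonuclease of mitochondria, had −0.51 ± 0.13 and 1.34 ± 0.13. Slc25a30, a mitochondrial carrier, had −0.86 ± 0.20 and 0.99 ± 0.20. Pbdc1 had −0.48 ± 0.12 and 1.94 ± 0.12. In each of these genes the change was the larger one at 4 weeks.

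Of the genes that fell at 4 weeks and rose at E10.5, Corin had the largest difference. Corin (chr5:72300025-72504473, minus strand) encodes the protease of cardiomyocytes that activates the natriuretic peptide precursor made from Nppa. Its scaled RPKM was 4.40, 3.99 and 4.85 in E10.5 Ctrl and 6.79, 7.85 and 6.10 in cKO, and 88.3, 92.9 and 81.7 in adult Ctrl and 11.6, 16 and 15.9 in icKO. The effects of 0.63 ± 0.13 and −2.6 ± 0.13 gave a difference of −3.23 ± 0.19 (adjusted p = 9.21e-08). Nppa itself, a member of the list of fetal and stress genes named after its values were seen, had an effect of −0.33 ± 0.20 at E10.5 (adjusted p = 0.34) and rose by 2.27 ± 0.20 at 4 weeks. Corin and Nppa thus moved in opposite directions in adult cardiomyocytes.

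Hrc (chr7:45335290-45338974, plus strand) encodes the histidine-rich calcium-binding protein of the sarcoplasmic reticulum. It rose from 36.7, 32.4 and 31.5 to 43.3, 48.5 and 56.7 at E10.5 and fell from 427, 357 and 411 to 62.6, 77.8 and 82.7 at 4 weeks, a difference of −2.98 ± 0.18 (adjusted p = 9.76e-08). Slc4a3, an anion exchanger that sets cell pH, had effects of 0.37 ± 0.10 and −2.28 ± 0.10. Adcy6, the adenylyl cyclase downstream of β-adrenergic receptors, had 0.40 ± 0.09 and −2.14 ± 0.09. Ablim1, an actin-binding LIM protein, had 0.43 ± 0.09 and −2.38 ± 0.09. The E10.5 rise of these genes was small and the fall at 4 weeks large.

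Gm13090, a predicted gene, went beyond 1 at both stages but had scaled RPKM under 2 in every sample, with effects of 1.56 ± 0.42 and −1.59 ± 0.42. Fam212b had the largest rise at E10.5 among the genes of this class named by the rule other than Gm13090, from 0.994, 1.18 and 1.15 to 3.57, 3.94 and 2.75, and fell from 2.30, 3.41 and 3.98 to 1.71, 1.96 and 1.61 at 4 weeks.

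Btg2, an antiproliferative gene induced by p53 and by growth signals, went from 5.09, 5.29 and 5.72 to 9.45, 14.4 and 6.88 at E10.5 and from 64.0, 86.3 and 71.8 to 20.3, 21.4 and 19.4 at 4 weeks. Its difference was −2.70 ± 0.28 (adjusted p = 6.62e-06). Ccng1, cyclin G1 and another p53 target, named after its values were seen, had effects of 0.88 ± 0.15 and −1.44 ± 0.15 and kept the class in all 12 leave-outs. Foxo3, a transcription factor of stress resistance and autophagy, had 0.68 ± 0.15 and −1.27 ± 0.15. Trim54, a ubiquitin ligase of the sarcomere, had 0.86 ± 0.18 and −0.78 ± 0.18. Ckmt2, the mitochondrial creatine kinase of muscle, had 0.53 ± 0.14 and −1.35 ± 0.14. Ttll1, which adds glutamate chains to tubulin, had 0.50 ± 0.11 and −2.02 ± 0.11, and Adamtsl4, a matrix protein associated with fibrillin, 0.80 ± 0.16 and −1.96 ± 0.16.

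**Figure D2:**
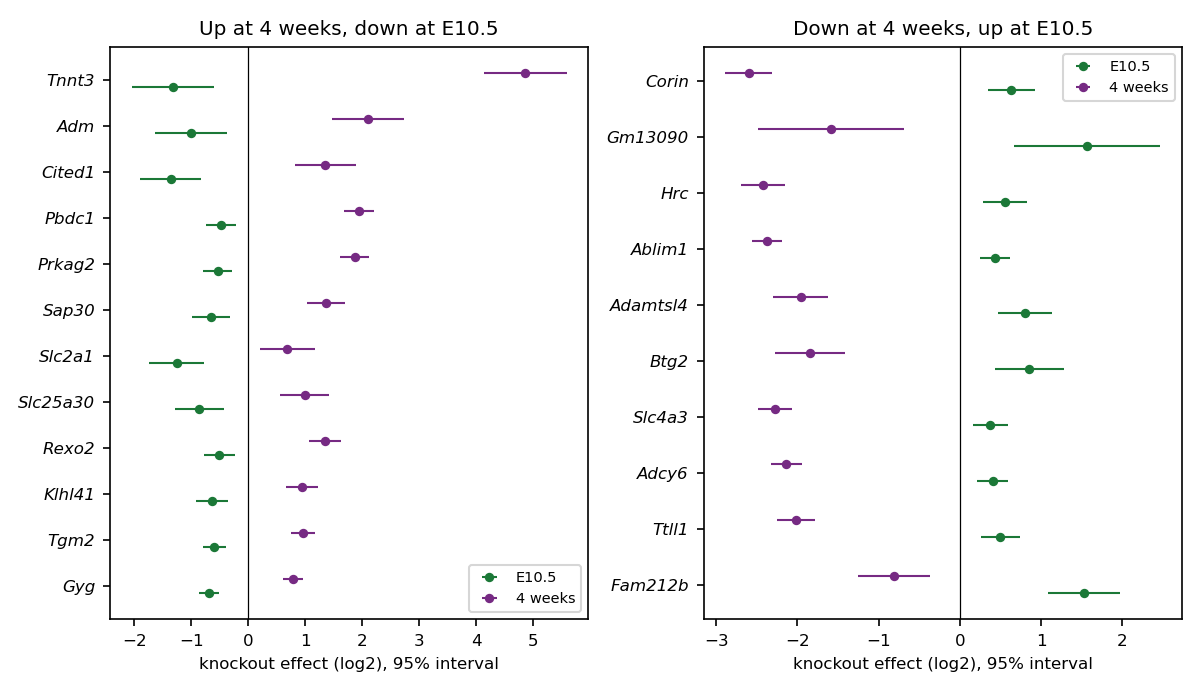
Knockout effect (x axis, log2; points) with its 95% confidence interval (bars) at E10.5 and at 4 weeks for the genes of each opposite class that the naming rule picked by size of the difference and that are reported here, n = 3 samples per group. The intervals of the stages lie on opposite sides of 0 for every gene, and for most genes the E10.5 effect is the smaller one.

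**Figure D3:**
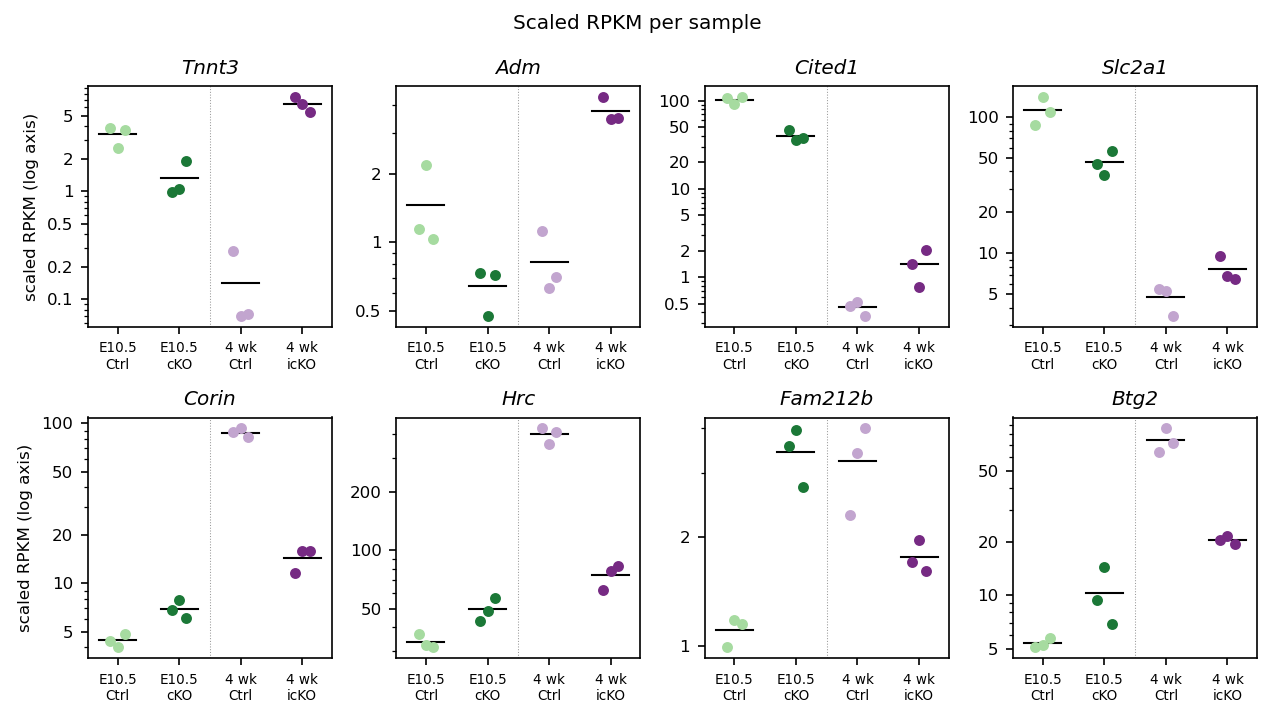
Scaled RPKM (log axis) of 8 genes with opposite effects in each sample (points) with the group mean (line). In the upper row the cKO samples lie below their Ctrl and the icKO samples above theirs, and in the lower row the reverse; levels left and right of the dotted line were normalized separately.

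Promoters of 4 of the opposite genes are shown for the sequence upstream of genes that part between the stages. Each is the 150 bases before the RefSeq transcription start on GRCm38.p6, written along the gene's strand. Capitals mark GATAAG, the site of GATA factors, or CCAAT, the site of NF-Y, where a search on both strands found those letters (ATTGG is CCAAT on the reverse strand). The regions are chr7:110627507-110627656 (+) for Adm, chrX:105079606-105079755 (+) for Pbdc1, chr5:72504541-72504690 (−) for Corin and chr7:45335119-45335268 (+) for Hrc. Adm and Pbdc1 rose at 4 weeks and fell at E10.5, and Corin and Hrc did the reverse.
Adm: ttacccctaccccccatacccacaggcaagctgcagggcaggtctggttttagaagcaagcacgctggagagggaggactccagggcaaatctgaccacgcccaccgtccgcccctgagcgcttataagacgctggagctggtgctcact
Pbdc1: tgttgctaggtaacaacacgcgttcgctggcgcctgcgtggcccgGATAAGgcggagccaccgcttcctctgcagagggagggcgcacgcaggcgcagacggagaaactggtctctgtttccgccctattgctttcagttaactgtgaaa
Corin: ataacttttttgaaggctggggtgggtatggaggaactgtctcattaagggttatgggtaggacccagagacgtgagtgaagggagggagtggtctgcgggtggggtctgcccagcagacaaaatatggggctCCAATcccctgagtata
Hrc: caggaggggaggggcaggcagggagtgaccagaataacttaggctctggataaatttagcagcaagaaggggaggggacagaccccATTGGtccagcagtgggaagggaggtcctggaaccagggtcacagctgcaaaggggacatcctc

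A promoter of 300 bases was found for 7085 of the 8909 genes, 22 of the 27 that rose at 4 weeks and fell at E10.5, and 36 of the 48 that did the reverse. CCAAT was present in 43.0% of all promoters, in 45.5% of the 22 and in 55.6% of the 36. The TATA box letters TATAAA were present in 8.10% of all, in 3 of the 22 (13.6%) and in 6 of the 36 (16.7%). GATAAG was present in 5.97% of all, in 2 of the 22 and in 3 of the 36. The CArG box, bound by SRF, was present in 1.71% of all, in 1 of the 22 and in 2 of the 36. These are counts of letters in a window, and nothing was tested on them.

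Among the 691 genes up at 4 weeks alone, the 5 largest differences that the naming rule picked were those of S100a11, Slc16a3, Eef1a1, Litaf and Carhsp1. S100a11, a calcium-binding protein, had a scaled RPKM of 25.4, 21.7 and 24.2 in E10.5 Ctrl and 33.4, 40.4 and 24.8 in cKO, groups that overlapped. It rose from 1.64, 1.35 and 1.69 in adult Ctrl to 89.3, 63.0 and 50.9 in icKO, a difference of 4.88 ± 0.28 (adjusted p = 8.21e-08). Slc16a3, the lactate exporter MCT4, was at 32.6, 50.1 and 39.1 in E10.5 Ctrl and at 41.0, 39.7 and 38.1 in cKO, whereas it went from 0.191, 0.511 and 0.560 to 15.9, 9.79 and 9.53 at 4 weeks. Its difference was 4.57 ± 0.39. Eef1a1, the translation elongation factor of growing tissues, had effects of −0.32 ± 0.17 and 4.19 ± 0.17, and reads of its many processed copies may be shared with it. Litaf, an endosomal membrane protein, had −0.03 ± 0.19 and 4.43 ± 0.19. Carhsp1, an RNA-binding protein, had 0.66 ± 0.11 and 5.0 ± 0.11, so it did rise at E10.5 (adjusted p = 0.0051) but by less than 1. In Slc16a3, Eef1a1 and S100a11 the adult Ctrl level was low and the embryonic Ctrl level high, on scales set separately.

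Among the 825 genes down at 4 weeks alone, the rule picked Pfkfb1, Plxnb1, Frem2, Dbp and Sorcs2. Pfkfb1, which sets the level of the glycolytic activator fructose 2,6-bisphosphate, was at 2.65, 2.68 and 2.01 in E10.5 Ctrl and at 2.36, 2.30 and 1.74 in cKO. It fell from 13.9, 13.8 and 8.22 in adult Ctrl to 0.220, 0.398 and 0.491 in icKO, a difference of −4.50 ± 0.36 (adjusted p = 9.38e-07). Plxnb1, a semaphorin receptor, had effects of 0.14 ± 0.19 and −4.30 ± 0.19. Frem2, a basement membrane protein, had −0.05 ± 0.21 and −4.46 ± 0.21. Sorcs2, a sorting receptor, had −0.18 ± 0.20 and −4.24 ± 0.20. Dbp, a transcription factor of the circadian clock, had −0.13 ± 0.38 and −4.30 ± 0.38. Its wide E10.5 interval reached beyond 1 in 6 of 12 leave-outs.

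The E10.5 alone class held 5 genes that were higher in cKO (0.0561%) and 1 that was lower (0.0112%). Casq2 encodes cardiac calsequestrin, the main calcium buffer of the sarcoplasmic reticulum. Its scaled RPKM was 6.03, 3.61 and 3.52 in E10.5 Ctrl and 9.19, 9.54 and 7.57 in cKO, and 376, 346 and 393 in adult Ctrl and 330, 349 and 347 in icKO, where the groups overlapped. The effects were 1.02 ± 0.16 and −0.12 ± 0.16, and the difference was −1.14 ± 0.23 (adjusted p = 0.0012). Its E10.5 effect was close to the limit of 1, and Casq2 kept the class under 1 of 4 other scalings. Its difference was not called on RPKM as deposited (−0.48), after quantile normalization (−0.36) or with the 20 most abundant genes left out of the scaling (−0.90). Slc19a2, a thiamine transporter, had effects of 1.31 ± 0.22 and −0.33 ± 0.22 and kept the class in all 12 leave-outs and all 4 scalings. Arhgap24, a GTPase-activating protein for Rac, had 1.04 ± 0.25 and −0.38 ± 0.25. Pcp4l1, a small protein with a calmodulin-binding motif, had 1.15 ± 0.26 and −0.05 ± 0.26. Atp1b2, a β subunit of the sodium pump, had 1.08 ± 0.27 and −0.08 ± 0.27. The 1 gene lower at E10.5 alone was the noncoding 2310009A05Rik (−1.08 ± 0.23 and 0.00 ± 0.23), whose exons overlap those of Pigb on the other strand. Arhgap24, Pcp4l1, Atp1b2 and Casq2 kept the class in 6 to 8 of 12 leave-outs. On RPKM as deposited the differences of Arhgap24 (−0.78), Pcp4l1 (−0.55) and Atp1b2 (−0.52) were not called, nor with the 20 most abundant genes left out of the scaling those of Pcp4l1 (−0.96) and Atp1b2 (−0.92). Ddc, the decarboxylase that makes dopamine and serotonin, named after its values were seen, had effects of −2.17 and −0.30 and a difference of 1.86 (adjusted p = 0.011), but its 4-week interval reached beyond −1.

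Of the function lists, the one of ion channels and gap junctions had the lowest median difference (−2.38). Over all genes the difference was called for 23.0%, with 10.7% higher and 12.4% lower, and the share called of most lists is given beside its counts. In the list paragraphs that follow, genes are the called members with the largest differences, and Myl4, Ldb3, Cdkn1a, Egr1, Acta2 and members not called were named after their values were seen. Of 18 ion channel and gap junction genes tested, the difference was called lower for 15 and higher for 0 (83.3%), with a median effect of −0.20 at E10.5 and −2.65 at 4 weeks. Kcnj11 and Abcc9, the pore and the sulfonylurea subunit of the KATP channel, had effects of −0.06 ± 0.19 and −0.25 ± 0.25 at E10.5 and of −3.17 ± 0.19 and −4.09 ± 0.25 at 4 weeks. Kcnj5, a channel opened by acetylcholine, had −0.18 ± 0.18 and −3.92 ± 0.18. Cacna2d1 and Gjc1 were among the 3 members not called. Abcc9 is also 1 of 7 mural cell markers, which together summed to 61.2 to 69.0 RPKM in adult Ctrl and to 23.0 to 45.9 in icKO. This sum includes Abcc9 itself. Of the 4 mural markers tested, Abcc9 among them, 3 had an effect above 0 at 4 weeks and 1 below. The part of such cells was not tested.

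Of 24 calcium handling genes, 9 were called lower and 2 higher (45.8%). Ryr2, the calcium release channel, was at 36.4, 38.6 and 39.5 in E10.5 Ctrl and at 33.3, 33.5 and 32.6 in cKO, and fell from 393, 372 and 358 to 34.7, 37.1 and 36.2 at 4 weeks. Its difference of −3.17 ± 0.10 (adjusted p = 9.40e-10) was measured with small error. Pln, phospholamban, which restrains the calcium pump, fell at both stages, by 1.5 and by 5.1 on the log2 scale. Calsequestrin and Hrc, described above, were the members that rose at E10.5.

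Of 33 sarcomere genes, 16 were called lower and 2 higher (54.5%; medians −0.02 at E10.5 and −1.11 at 4 weeks). The 4-week median was −0.57 on RPKM as deposited, with 7 called lower and 5 higher for the difference, and −0.05 after quantile normalization, with 10 lower and 5 higher. Myh6, the adult fast myosin heavy chain, was at 299, 304 and 259 in E10.5 Ctrl and at 264, 300 and 327 in cKO, which overlap, and fell from 5473, 5239 and 5062 to 270, 367 and 456 at 4 weeks (difference −3.93 ± 0.22). Myh7b had effects of −1.23 ± 0.23 and −4.74 ± 0.23. Ldb3, a protein of the Z-disc, had opposite directions (0.36 and −0.94). Tpm2, the β-tropomyosin of slow and smooth muscle, was called higher at both stages (1.0 ± 0.25 and 3.43 ± 0.25), and Myl4, the atrial and fetal light chain, was the other member called higher. Actc1, Tnnt2, Ttn and the other 7 cardiomyocyte markers summed to 19515 to 20893 RPKM in adult Ctrl and to 9531 to 11314 in icKO, against 4478 to 5891 in E10.5 Ctrl and 3807 to 4513 in cKO. The members did not move alike. On RPKM as deposited, Actn2 went from 602, 661 and 617 in adult Ctrl to 1191, 1211 and 1016 in icKO. Tnnc1 and Nkx2-5 were also higher in icKO (all 3 named after their values were seen). After scaling, 8 of the 10 markers had a 4-week effect below 0 and 2 above. Their median 4-week effect was −1.20, and 0.02 after quantile normalization. In bulk RNA, fewer cells of a type and less RNA per cell cannot be told apart.

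Of 31 genes of fatty acid oxidation, 26 were called lower and 0 higher (83.9%), 24 of them at 4 weeks alone (median effects −0.12 and −1.51). On RPKM as deposited 12 were called lower, and 17 after quantile normalization. Lpl, which releases fatty acids from circulating fat, had effects of 0.46 ± 0.25 and −2.94 ± 0.25. Pdk4, a pyruvate dehydrogenase kinase, had 0.21 ± 0.25 and −2.92 ± 0.25, and Acaa2, the thiolase of the final step, −0.25 ± 0.12 and −3.31 ± 0.12. Of 31 genes of the TCA cycle and branched-chain amino acid breakdown, 14 were called lower (6 on RPKM as deposited) and 0 higher (45.2%), among them Cs, citrate synthase (−0.05 ± 0.09 and −2.0 ± 0.09), Bckdhb and Mccc2. Complex I had 7 of 37 called lower (18.9%), complexes II to V 9 of 42 (21.4%), and none was called higher in either. These shares lay above the 12.4% of all genes called lower and below the 23.0% called in either direction. The difference was below 0 for 36 genes of complex I and above 0 for 1, and for 40 and 2 of complexes II to V. Their median differences were −0.62 and −0.67, and on RPKM as deposited 0.04 and −0.01 beside a median of 0.69 over all genes, with 0 and 1 called lower. After quantile normalization they were −0.11 and −0.08, with 1 and 0 called lower. Ndufs7 of complex I had −0.52 ± 0.08 and −1.84 ± 0.08, and Cox7a1, a muscle isoform of complex IV, 0.33 ± 0.18 and −1.35 ± 0.18. Of 14 genes of energy buffering, 5 were called lower and 1 higher (42.9%; 3 and 3 on RPKM as deposited), with Ak1, adenylate kinase, at 0.16 ± 0.10 and −2.47 ± 0.10, and Slc6a8, the creatine transporter, was the 1 called higher (0.10 ± 0.11 and 1.17 ± 0.11).

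Of 25 glycolysis genes tested, 5 were called higher and 7 lower (48.0%), with a median difference of −0.10. The split turned with the scaling, to 9 higher and 2 lower on RPKM as deposited (median 0.56), 7 and 4 with the 20 most abundant genes left out and 6 and 5 after quantile normalization. The higher ones were Slc2a1, Slc16a3, Pgk1, Eno1 and Pfkp, the platelet phosphofructokinase (−0.01 ± 0.14 and 2.66 ± 0.14). Those called lower were Pfkfb1, Pfkfb2, the muscle phosphofructokinase Pfkm, the muscle glycogen phosphorylase Pygm, Gys1, Ldhb and the insulin-regulated glucose transporter Slc2a4. Slc2a4 had effects of 0.46 and −1.74, whereas the other glucose transporter, Slc2a1, had −1.26 and 0.69. The list members beyond Pfkp, Pfkfb1, Slc16a3 and Slc2a1 are named after their values were seen.

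**Figure D4:**
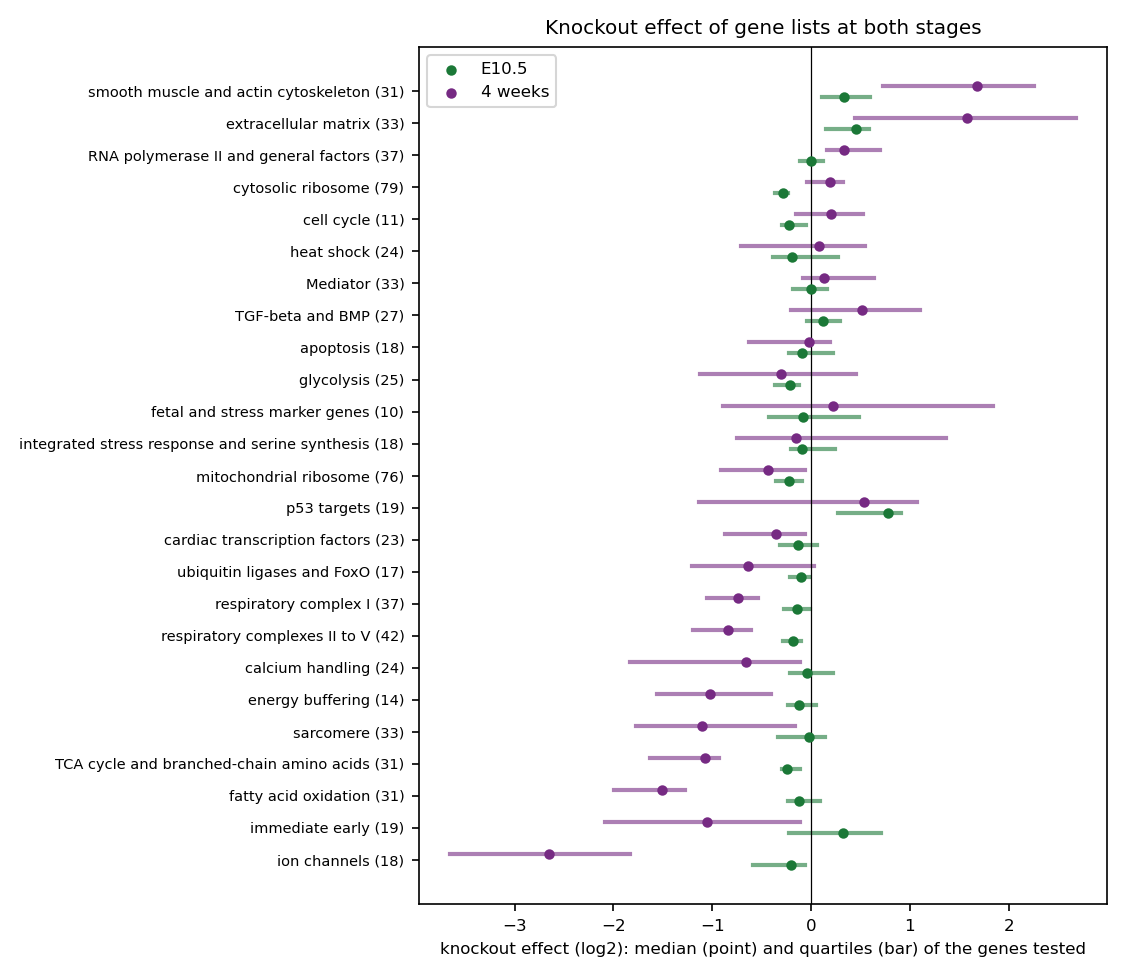
Median (point) and quartiles (bar) of the knockout effect (x axis, log2) at E10.5 and at 4 weeks for the genes of each function list, ordered by the median difference, with the number tested in parentheses. The 4-week medians run from −2.65 for ion channels to 1.68 for smooth muscle and actin genes, and the E10.5 medians from −0.28 to 0.78.

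Of 19 p53 targets tested, 9 rose and 0 fell at E10.5 (median effect 0.78), and 10 rose and 5 fell at 4 weeks (median 0.53). Beyond 1, 3 were called higher and 0 lower at E10.5, and 5 and 5 at 4 weeks. Cdkn1a, the cell cycle inhibitor p21, was called higher at both stages (2.66 ± 0.34 and 3.76 ± 0.34), and its difference of 1.10 ± 0.48 was not called (adjusted p = 0.068). The difference was called for 36.8%, lower for 6, including Btg2, Ccng1 and Sesn1, which restrains mTORC1 (0.27 ± 0.18 and −2.43 ± 0.18), and higher for 1, Phlda3, an inhibitor of Akt (0.86 ± 0.17 and 4.04 ± 0.17). On RPKM as deposited 5 were called lower and 6 higher, with a median difference of 0.26 in place of −0.39. With the 20 most abundant genes left out of the scaling, 6 were lower and 3 higher. The list thus held members that moved together at both stages and members that parted.

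Of 19 immediate early genes, which respond rapidly to signals, 11 were called lower and 1 higher (63.2%), with median effects of 0.32 at E10.5 and −1.05 at 4 weeks. Fos had a scaled RPKM of 2.53, 1.11 and 3.04 in E10.5 Ctrl and 3.10, 3.17 and 1.87 in cKO, which overlap, and of 37.4, 84.1 and 47.4 in adult Ctrl and 6.31, 4.72 and 3.15 in icKO (difference −3.86 ± 0.53, adjusted p = 6.37e-05). Dusp1, a phosphatase of MAP kinases, had effects of 0.28 ± 0.20 and −3.08 ± 0.20. Klf4 was the 1 called higher (0.32 ± 0.24 and 1.58 ± 0.24). Egr1 fell at both stages, by 1.68 and 3.13 on the log2 scale.

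Of 37 subunits of RNA polymerase II and the general factors, 6 were called higher and 0 lower (16.2%), and 22 higher on RPKM as deposited. Over all genes, 10.7% were called higher and 23.0% in either direction after scaling. Polr2a, the largest subunit of the polymerase, was called higher at both stages. It went from 19.2, 15.7 and 17.4 to 40.4, 42.9 and 40.2 at E10.5 and from 10.2, 11.0 and 8.53 to 148, 140 and 124 at 4 weeks, a difference of 2.54 ± 0.15 (adjusted p = 1.10e-07). Gtf2b, which positions the polymerase, had effects of 0.11 ± 0.09 and 1.95 ± 0.09, and Gtf2f1, a part of TFIIF, 0.11 ± 0.17 and 1.68 ± 0.17. Of the 33 Mediator genes 9.09% were called in either direction, below the 23.0% of all genes. The 2 called higher were Med15 of the tail (0.22 ± 0.11 and 1.60 ± 0.11) and Med21 of the middle (−0.21 ± 0.14 and 0.81 ± 0.14). The 1 called lower was Med12l of the kinase module (0.21 ± 0.15 and −1.45 ± 0.15). The median difference was 0.25 for Mediator and 0.46 for the polymerase list.

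Of 23 cardiac transcription factors, 4 were called lower and 1 higher (21.7%, near the share of all genes). At E10.5, 3 fell and 0 rose (median effect −0.14), and at 4 weeks 13 fell and 1 rose (median −0.36). Over all genes, 8.92% passed by adjusted p at E10.5 and 66.7% at 4 weeks. On RPKM as deposited the 4-week median was 0.18, with 2 called higher and 2 lower for the difference. With the 20 most abundant genes left out of the scaling it was −0.06. Tbx5, a factor of chamber formation and conduction, had effects of −0.36 ± 0.15 and −2.18 ± 0.15, and Irx3, of the conduction system, −0.39 ± 0.22 and −2.16 ± 0.22. Hopx fell at both stages (−0.93 ± 0.11 and −2.49 ± 0.11). Tbx20 was the 1 called higher (−0.30 ± 0.18 and 0.97 ± 0.18).

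Of the function lists, smooth muscle and matrix genes had the highest median differences (1.27 and 1.0). Of 31 smooth muscle and actin cytoskeleton genes, 18 were called higher and 3 lower (67.7%; median effects 0.33 and 1.68). Cnn1, calponin of smooth muscle, had a scaled RPKM of 52.1, 50.1 and 46.9 in E10.5 Ctrl and 125, 152 and 120 in cKO, and of 0.323, 0.103 and 0.177 in adult Ctrl and 266, 148 and 215 in icKO. It was called higher at both stages, with a difference of 8.06 ± 0.34 (adjusted p = 1.12e-08). Flna, filamin A, had effects of 0.62 ± 0.17 and 3.14 ± 0.17, whereas Fhl2, a LIM protein enriched in the heart, had −0.56 ± 0.13 and −4.11 ± 0.13. Acta2, the smooth muscle actin, was called lower for the difference (0.47 ± 0.21 and −0.93 ± 0.21).

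Of 33 extracellular matrix genes, 15 were called higher and 3 lower (54.5%; median effects 0.45 and 1.58), and 10 rose at E10.5 while 0 fell there. Postn, periostin of activated fibroblasts, was at 32.1, 11.0 and 20.8 in E10.5 Ctrl and at 25.3, 8.31 and 23.9 in cKO, and rose from 0.301, 0.602 and 0.416 to 21.1, 20.6 and 18.7 at 4 weeks (difference 5.44 ± 0.58, adjusted p = 8.51e-06). Col1a1, of collagen I, had effects of 0.52 ± 0.26 and 3.94 ± 0.26. Fbln1, fibulin 1, went the other way (0.15 ± 0.19 and −3.82 ± 0.19). The 11 fibroblast markers summed to 9.25 to 20.5 RPKM in adult Ctrl and to 77.1 to 108 in icKO, with none of them at 0 throughout either adult group, against 96.7 to 175 in E10.5 Ctrl and 126 to 144 in cKO, with Dpt at 0 in E10.5 Ctrl. The fibroblast list shares Postn, Col1a1 and other collagens with the matrix list, and the part of fibroblasts in these results was not tested. Of the 9 endothelial markers tested, 0 were called for the difference in either direction, while all 9 had an effect above 0 at 4 weeks (median 0.36). The 11 endothelial markers listed summed to 31.2 to 83.2 RPKM in adult Ctrl and to 72.1 to 126 in icKO, ranges that overlap. The 12 macrophage markers summed to 3.35 to 6.00 RPKM in adult Ctrl and to 8.84 to 12.5 in icKO. The part of these cells was not tested either. In the TGFβ and BMP list, 6 of 27 were called higher, led by Tgfb2, a TGFβ ligand (−0.07 ± 0.26 and 4.10 ± 0.26), and Id2 (−0.48 ± 0.15 and 2.03 ± 0.15), and 3 lower (33.3%).

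The 79 cytosolic ribosomal protein genes had a median effect of −0.28 at E10.5, where 19 fell and 0 rose, and of 0.19 at 4 weeks. The difference was called for Rpl3 (−0.37 ± 0.18 and 1.65 ± 0.18) and Rps20 (−0.23 ± 0.15 and 0.87 ± 0.15) alone after scaling (2.53%, far below the share of all genes) and for 52 of the 79 on RPKM as deposited. The 76 mitochondrial ribosome genes had median effects of −0.23 at E10.5 and −0.43 at 4 weeks, and 9 were called lower and 1 higher for the difference (13.2%, and 2 and 12 on RPKM as deposited). Mrps28 fell at both stages (−0.70 ± 0.10 and −2.57 ± 0.10), and Mrpl32 was the 1 called higher (−0.52 ± 0.20 and 0.49 ± 0.20). Of 24 heat shock genes, 2 were called higher and 2 lower (16.7%), and 10 and 0 on RPKM as deposited. Hsp90aa1, the inducible HSP90, had the largest difference (−0.29 ± 0.10 and 2.97 ± 0.10). Hsph1, which encodes HSP110, had opposite directions (−0.63 ± 0.14 and 0.53 ± 0.14), and Dnajb5 the reverse ones (0.69 ± 0.12 and −0.76 ± 0.12).

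Of 18 genes of the integrated stress response and serine synthesis, 4 were called higher, led by Slc7a5, a transporter of large amino acids (−0.13 ± 0.16 and 3.65 ± 0.16), and Mthfd2, of mitochondrial folate metabolism (−0.57 ± 0.18 and 2.19 ± 0.18), and 5 lower, with Aldh1l2 the lowest (−0.20 ± 0.27 and −2.97 ± 0.27). On RPKM as deposited 7 were higher and 1 lower. Of 18 apoptosis genes, 3 were called higher and 3 lower (33.3%; 6 and 0 on RPKM as deposited), and the antiapoptotic Bcl2 (0.28 ± 0.18 and 2.01 ± 0.18) and Mcl1 (0.14 ± 0.10 and −0.95 ± 0.10) parted. Of 11 cell cycle genes tested, 27.3% were called. Pcna was called higher (0.07 ± 0.19 and 1.98 ± 0.19), as was Ccna2, and Cenpa lower (−0.51 ± 0.16 and −1.68 ± 0.16). Of 17 ubiquitin ligase and FoxO genes, 5 were called lower and 0 higher (29.4%; 2 and 3 on RPKM as deposited), with Fbxo31 the lowest (−0.15 ± 0.19 and −3.06 ± 0.19). Of 10 fetal and stress genes, 3 were called higher, including Uchl1, a ubiquitin hydrolase (0.19 ± 0.21 and 2.97 ± 0.21), and 2 lower.

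Genes called in the same direction at both stages numbered 46, against 5 called in opposite directions, among the 67 genes called at E10.5. The other 16 were not called at 4 weeks. Of the 30 lower at both stages, the difference was called for 17, each with the larger fall at 4 weeks. These included Pln, Myh7b, Gja1, the gap junction protein connexin 43 (−1.74 and −3.42), and Mb, myoglobin (−2.88 and −4.31). Of the 16 higher at both stages, 9 had a called difference, among them Polr2a, Tpm2, Cnn1, Epha2, an ephrin receptor (1.18 and 4.09), and Col8a1, a collagen of vessels (1.89 and 3.73). The difference was called toward a larger change at E10.5 for 0 of the 46. Fbxo32, the ubiquitin ligase atrogin-1 (−1.25 and −1.42), and Irx4, a ventricular factor (−1.21 and −1.33), had near-equal effects. Genes of this paragraph other than Polr2a, Tpm2, Cnn1, Pln and Myh7b are named after their values were seen.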

How the data were processed

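Total RNA was sequenced after ribosomal depletion in 12 samples, 3 per group. The authors mapped reads to GRCm38, and the submitters' processing notes name cutadapt 2.6, STAR 2.5.3a, HOMER 4.11.1 and DESeq2 1.12.4. The strand setting and the annotation are not given in the sources used here. The deposited tables, 1 per stage, hold RPKM of 20775 genes, a mean, and the authors' log2 fold changes and FDR, which were not used. The labels do not say that replicates are separate animals, so p values measure the spread between these samples, which may be technical.

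RPKM were divided by median-ratio factors within each stage (0.826 to 1.24) and filtered at a mean above 1 in each table. They were fitted with limma 3.58.1 (R 4.3.3; lmFit, eBayes with trend) on log2(RPKM + 0.1), which understates changes of low genes. The 4 groups shared 1 spread per gene. An exact test of 3 against 3 cannot reach a two-sided p under 0.1. The spacing of low values gave relative depths of 0.685 to 1 at E10.5 and 0.906 to 1.33 at 4 weeks, relative to Ctrl replicate 1, and absolute depth is not given here.

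Up to 12 genes of each opposite class and 5 of each class of 1 stage alone were named by size of the difference, provided that the samples did not overlap at the stages called and that each group had a sample at an RPKM of 0.1 or more. Med30 and up to 3 called genes of each list (at least 1 per direction) were added. Some genes that this rule picks are not reported here. The genes compared and the lists were chosen with earlier results of these data known. Lists are described by counts and medians, without a test. The fit was tested on simulated data. Python 3.11.15, pandas 2.3.3 and numpy 2.4.6 were used for tables. Gene positions are from GENCODE on GRCm38 and promoters from RefSeq (GRCm38.p6). The alternatives were 4 scalings, 2 pseudocounts, 3 filters, eBayes without trend, sample weights, each stage on its own, treat at a fold change of 1.2, a replicate block and each sample left out.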

Additional observations from a re-analysis of the deposited data

Results flagged for a closer look

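The knockout effect differed between the stages by the test of the difference itself for 949 genes with the higher effect at 4 weeks and 1104 with the lower one. Of these, 27 rose at 4 weeks and fell at E10.5 and 48 did the reverse, and 5 genes were called beyond 1 at both stages in opposite directions. Differences of log2 effects among them were 6.19 for Tnnt3, 3.11 for Adm, 2.71 for Cited1 and −3.15 for Gm13090. For the genes moved at E10.5 alone, the differences were −1.64 for Slc19a2, −1.42 for Arhgap24, −1.21 for Pcp4l1, −1.15 for Atp1b2, −1.14 for Casq2 and 1.08 for 2310009A05Rik. Groups of 3 are too small for a test of single outlying samples.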

How the results depend on the processing

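Of the 113 genes named by the rule, 87 kept the direction and the call of their difference under all 26 alternatives, and over all genes and alternatives 2824 of 2898 values did, 69 lost the call, 5 gained it and 0 reversed. Of 650 list medians, 83 moved by more than the spread between replicates. Counts that moved by over 1.5 times follow.

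On RPKM as deposited, the difference was called higher for 3057 and lower for 448 genes, the 4-week effect higher for 2514 and lower for 602, the 4 weeks alone class held 2102 up and 327 down, E10.5 alone 3 up and 5 down, and the opposite classes 267 up and 14 down at 4 weeks. With scaling that left out the 20 most abundant genes, the difference was higher for 1549 and the 4-week effect for 1718, 4 weeks alone held 1224 up and 535 down, and E10.5 alone 3 up and 3 down. At a mean RPKM above 5, the difference was higher for 531 and lower for 452, the 4-week effect for 530 and 520, the E10.5 effect for 10 and 15, 4 weeks alone held 400 up and 363 down, E10.5 alone 2 up and 0 down, and the same direction 6 higher and 13 lower. With no filter, the difference was lower for 1771, the 4-week effect higher for 1545 and lower for 2043, the E10.5 effect for 96 and 111, E10.5 alone held 31 up and 36 down, and the same direction 27 higher. With a pseudocount of 1, the E10.5 effect was higher for 13 and lower for 21, E10.5 alone held 1 up, and the same direction 7 higher and 16 lower. Against a fold change of 1.2, the E10.5 effect was higher for 11 and lower for 15, E10.5 alone held 2 up and 0 down, each opposite class 1, and the same direction 8 higher and 14 lower. With sample weights, 49 genes rose at 4 weeks and fell at E10.5, and E10.5 alone held 2 down. With each stage on its own it held 0 down. The cause of these shifts was not tested beyond the fewer genes that the stricter filters and the stricter test leave.

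With 1 sample left out in turn, the difference was higher for 918 to 1039 and lower for 1034 to 1144 genes, the 4-week effect for 967 to 1087 and 1153 to 1279, and the E10.5 effect for 18 to 38 and 27 to 50. 4 weeks alone held 647 to 750 up and 772 to 868 down, E10.5 alone 1 to 7 up and 1 to 4 down, and the same direction 10 to 21 higher and 20 to 36 lower. The genes that rose at 4 weeks and fell at E10.5 numbered 13 (without E10.5 Ctrl replicate 1) to 49 (without cKO replicate 3), and those that did the reverse 31 (without cKO replicate 2) to 58 (without cKO replicate 3).

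Ctrl and knockout samples share replicate numbers, but same-numbered samples did not deviate together (correlation −0.060 to 0.068 at E10.5 and 0.042 to 0.154 at 4 weeks), so the numbers were not taken as pairs. With a replicate block, 948 and 1103 genes were called, and 53 had opposite directions, 48 of them among the 75.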

Other observations

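The lists described here were chosen after their values were seen, and nothing was tested on them. The 8 subunits of the TRiC chaperonin, which folds actin and tubulin, all had a difference above 0, from 0.42 for Cct4 to 1.38 for Cct8. Their median effect was −0.30 at E10.5, where 5 of the 8 fell, and 0.45 at 4 weeks. Cct8 had a scaled RPKM of 85.6, 79.1 and 78.3 in E10.5 Ctrl and 66.2, 63.2 and 64.1 in cKO, and of 40.4, 37.9 and 40.7 in adult Ctrl and 85.8, 85.6 and 76.1 in icKO. Cct8 and Tcp1 were in the class that rose at 4 weeks and fell at E10.5. Tcp1 kept the class in 3 of 12 leave-outs, Cct8 in 10. Exons of Cct8 overlap those of Usp16, and exons of Tcp1 those of Acat3, which is in the same class, on the other strand.

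Of 13 circadian clock genes tested, the difference was called lower for 4 and higher for 1, and 0 rose or fell at E10.5. Dbp (−4.17 ± 0.53), Per3 (−2.33 ± 0.37), Bhlhe40 (−1.53 ± 0.43) and Tef (−1.19 ± 0.41) were lower and Arntl, which encodes the activator BMAL1, higher (2.55 ± 0.57). Nr1d1, a repressor of Arntl, ranged from 12.1 to 61.1 in the adult Ctrl samples and from 12.7 to 17.8 in icKO. The icKO samples all lay within the range of the adult Ctrl samples. Hours of collection were not analysed here.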
